A study of Rattus norvegicus with 24 samples.

Results

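The genes described here are the enzymes that attach ubiquitin and its relatives to proteins and take them off again. They were taken by name from the annotation of the array: every probe set with a single gene symbol beginning with Uba and a digit, Ube, Usp and a digit, or Uchl, leaving out Usp18 and Ube2c. A probe set is a group of short oligonucleotides on the array that are read together as 1 signal, and some sets can match more than 1 transcript. The rule found 69 of the 10411 named genes, on 92 of 15866 probe sets, and no measured value entered it. Among the 92 were 4 probe sets for E1 activating enzymes, 38 for E2 conjugating enzymes, 6 for E3 or E4 ligases of the Ube3 and Ube4 type, 42 for ubiquitin-specific proteases and 2 for ubiquitin C-terminal hydrolases.

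Ubiquitin is a small protein that is joined to other proteins in a relay. An E1 enzyme activates it with ATP, an E2 enzyme carries it, and an E3 ligase chooses the target; an E4 ligase lengthens the chain. Chains of some linkages send a protein to the proteasome, while others serve in signalling, membrane traffic or DNA repair. Deubiquitinating enzymes such as the Usp and Uchl families cut chains off. NEDD8, SUMO and ISG15 are joined by related relays with their own E1 and E2 enzymes, some of which carry the same gene names. Nerve cells are known for a large store of Uchl1, and a failing ubiquitin system is among the features for which old brain tissue is known.

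RNA came from male Sprague-Dawley rats aged 4, 10, 18 or 24 months, for which the labels name no treatment. The 6 tissues were bone, kidney, liver, hypothalamus, pituitary and spleen lymphocyte. The 24 arrays, of the Affymetrix Rat Expression 230A type, were 1 for each tissue and age, and each was hybridised with RNA pooled in equal parts from 10 rats. The same 10 rats gave all 6 tissues of their age. The study asked how expression in different tissues moves together as rats age. A pool gives no spread between rats, so every error below is the spread between arrays of different ages or tissues, and it can be technical.

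Values are MAS5.0 signals, linear brightness scaled by the authors so that each array has an average of 500. Array medians lay between 213 and 309, and 67.8% to 77.0% of the probe sets of an array had a signal of at least 100. Tests used log2 signals with everything under 100 set to 100, so that a difference involving such a signal is understated, and they covered the 11756 probe sets with at least 100 on 12 or more arrays. Of the 92 probe sets, 85 passed, for 66 genes. The other 7 were those of Ube2d2b, Ube2t and Usp42 and the second sets of Ube2e3, Ube2f, Usp40 and Usp8. Levels are compared between arrays for one probe set, never between probe sets. The tissue labels matched their markers: anterior pituitary hormones summed to at least 137070 in pituitary and at most 7375 elsewhere, and hepatocyte markers to at least 562875 in liver. Those hepatocyte markers also summed to 30295 on the 10-month hypothalamus array against 14445 to 15735 on the other 3. The hypothalamus at 10 months, the kidney at 18 months and the bone at 4 and 18 months stood apart from other arrays of their tissue, and results without them are given where they differ.

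The enzymes spanned a narrower range over the arrays than probe sets at large. After flooring, the highest signal of a probe set was a median of 3.72 times its lowest, against 4.80 times over all probe sets tested, and 40 of the 85 (47.1%) spanned more than 4-fold, against 60.7% of all. Tissue took a median of 77.2% of the variance of a member and age, as a term shared by all tissues, 2.24%. The medians over all probe sets were 81.2% and 2.26%. Of the 85, 5 spanned less than 2-fold, against 204 of all 11756 tested. They were Ube2l3 on one set, Ube2f, Usp8, Ube3c and Ube3a, the last with signals near the floor. Ube2l3, a broadly used E2 that works with HECT and RBR ligases such as parkin, stayed between 1326 and 2261 on all 24 arrays on one of its probe sets. Ube2f, an E2 for NEDD8, stayed between 897 and 1659.9. The widest were Uchl1, Ube2o, Uba6, Ube2s and Usp46.

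**Figure D1:**
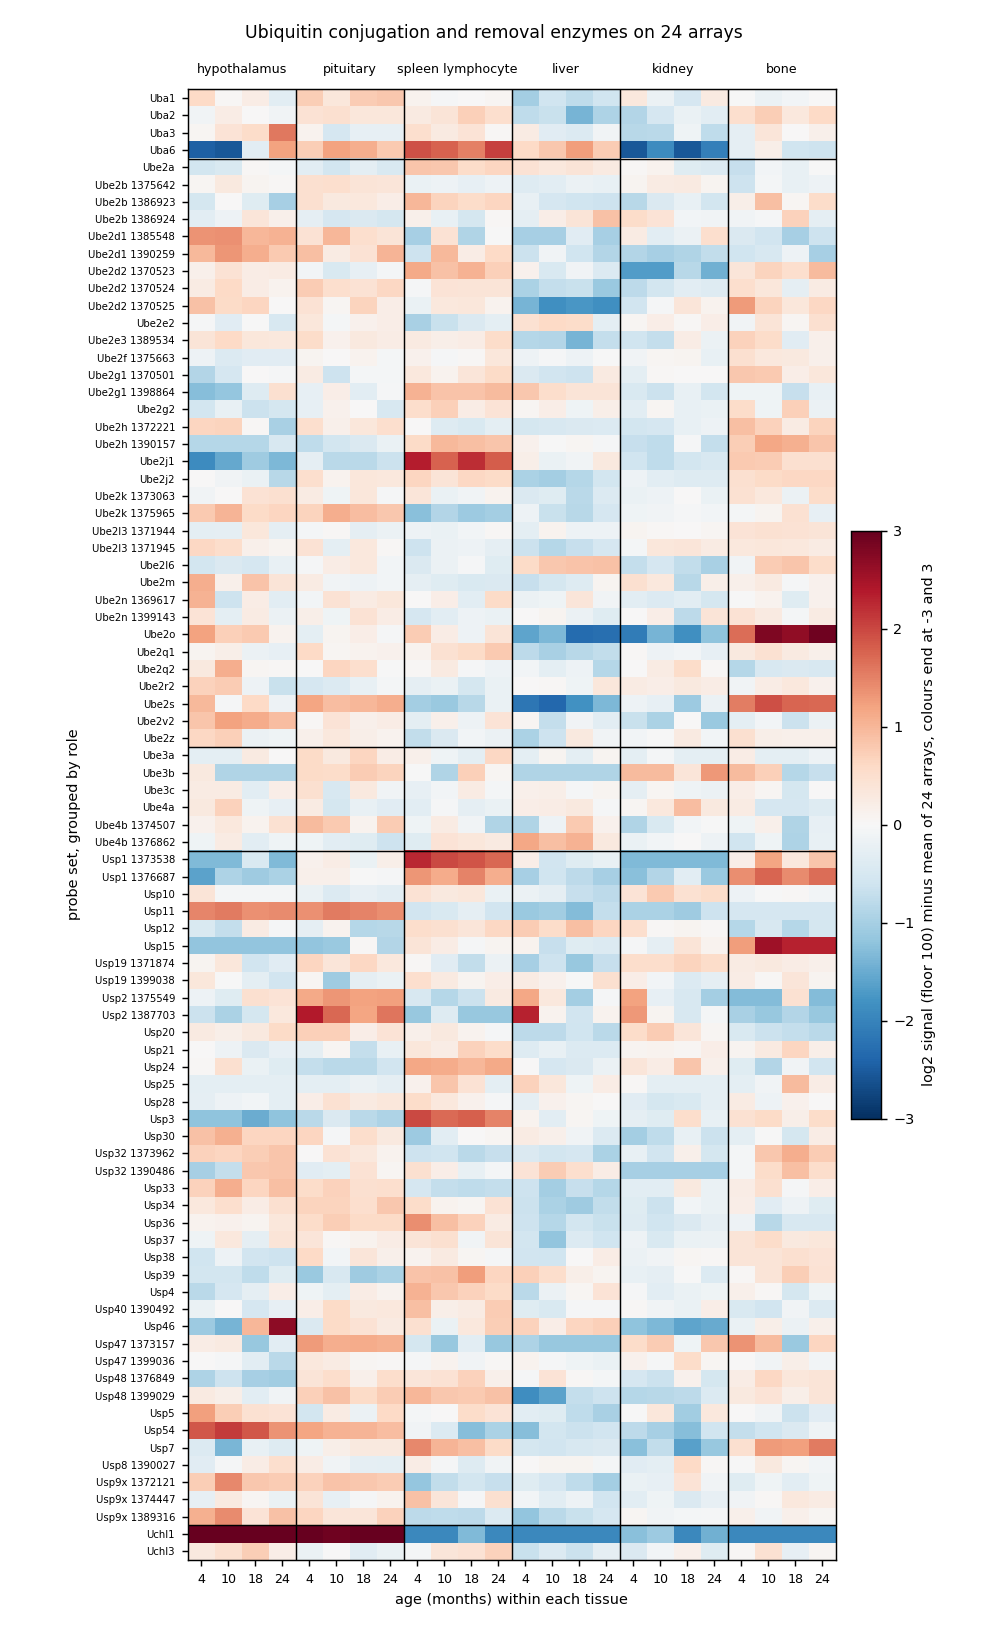
Heat map of the 85 probe sets that passed the filter (rows, grouped by role) on the 24 arrays (columns, 4 ages within each of 6 tissues), coloured by log2 signal with a floor of 100 minus its mean over the 24 arrays; colours end at -3 and 3, which Uchl1 exceeds. The blocks of 4 columns differ far more than the columns within a block, and the rows of Uchl1, Uba6, Ube2o, Usp15 and Usp46 are among those with the deepest colours.

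Several genes had more than 1 probe set, and these did not always move together. Of 16 genes with at least 2 sets that passed, the lowest Pearson correlation between sets over the 24 arrays was over 0.7 for 2, Usp1 (0.83) and Usp2 (0.80), and under 0 for 4: Ube2b (-0.48), Usp19 (-0.27), Usp9x (-0.13) and Ube4b (-0.03). These correlations run over arrays that share tissues and are descriptive. Results for genes with several sets are therefore given for each set.

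Each tissue was compared with the mean of the other 5 in a limma fit with tissue and age as factors, and a probe set was called at a Benjamini-Hochberg adjusted p under 0.05 with a log2 difference of at least 1. Values in parentheses after a tissue are these log2 differences ± SE. Over the 6 tissues, 40 of the 85 probe sets, for 33 genes, were called at least once, and 45 were called in no tissue. No such count was made over all probe sets, so it cannot be read as high or low. The shares of all probe sets are given for each tissue instead. In hypothalamus 9 of the 85 were higher and 7 lower, where 12% and 10.5% of all probe sets tested were. In pituitary 9 were higher and 1 lower, against 10.2% and 6.48%. Spleen lymphocyte had 11 higher and 3 lower, against 13.6% and 14.6%. Liver had 2 higher and 15 lower, against 9.42% and 15.7%. Kidney had 1 higher and 12 lower, against 10.2% and 9.42%, and bone 6 higher and 3 lower, against 10.4% and 8.04%.

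Members called higher in hypothalamus, pituitary and spleen lymphocyte (10.6%, 10.6% and 12.9% of the 85), and lower in liver (17.6%), lay near the shares of all probe sets. Members called higher in liver and kidney (2.35% and 1.18%), and lower in pituitary and spleen lymphocyte (1.18% and 3.53%), were fewer than those shares would give. Bone (7.06% higher and 3.53% lower) and hypothalamus (8.24% lower) were also under them. Members called lower in kidney (14.1%) were above the share there. The median difference over the members was -0.33 in liver, -0.19 in kidney, 0.22 in pituitary, 0.17 in spleen lymphocyte, 0.16 in bone and 0.05 in hypothalamus, on the log2 scale. Over all probe sets it was -0.23, -0.16, 0.12, -0.04, 0.01 and -0.13. The liver and pituitary splits depended on scaling: with quantile normalization liver had 3 higher and 9 lower and pituitary 8 and 4, and with the array medians made equal liver again had 3 and 9 and pituitary 7 and 4. Quantile normalization moved the median of all probe sets from -0.23 to -0.11 in liver and from 0.12 to -0.004 in pituitary.

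Among the E1 enzymes, 1 had a strong tissue pattern. Uba6, the second E1 for ubiquitin, which also activates the modifier FAT10, gave signals of 2211, 1989, 1660.2 and 2419 in spleen lymphocyte at 4, 10, 18 and 24 months, and of 96.7, 157, 98 and 141 in kidney. Pituitary (970.3 to 1343), liver (891 to 1406) and bone (379 to 664) lay between these, and hypothalamus ran from 71.7 to 1359.6. Every spleen lymphocyte array was above every other array, with a log2 difference from the other tissues of 2.17 ± 0.38 (SE; adjusted p = 3.26e-05), while the kidney difference was -2.72 ± 0.38 (SE; adjusted p = 2.81e-06). It was also called higher in pituitary (1.14 ± 0.38) and liver (1.03 ± 0.38) and lower in hypothalamus (-1.23 ± 0.38). The liver call was lost without the 4 arrays that stood apart, at 0.92.

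The other E1 enzymes moved less. Uba1, the main E1 for ubiquitin, lay between 908 and 1228 in liver and between 2363 and 3228 in pituitary, and was called in no tissue. Uba3, the catalytic E1 subunit for NEDD8, was called in none either and had its highest signal, 3727, in hypothalamus at 24 months. Uba2, the catalytic E1 subunit for SUMO, was lower in liver, at 862, 915, 553 and 762 against 789 to 2439 elsewhere, a log2 difference of -1.13 ± 0.14 (SE; adjusted p = 3.36e-07).

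The E2 enzymes called in a tissue are given from bone to spleen lymphocyte to hypothalamus. Ube2o, a large enzyme that acts as E2 and E3 in one and is known for clearing proteins from maturing red cells, gave 2198, 4767, 4283 and 5168 in bone, above all 20 other arrays, whose range was 137 to 1564. The log2 difference was 3.02 ± 0.22 (SE; adjusted p = 2.28e-10), and it was lower in liver (-2.25 ± 0.22) and kidney (-1.96 ± 0.22). Ube2s, which lengthens chains for the anaphase-promoting complex in mitosis, gave 3457, 4587, 4001 and 3968 in bone and 2708, 2277, 2406 and 2551 in pituitary against 267, 235, 342 and 473 in liver. Its log2 differences were 2.08 ± 0.20 (SE; adjusted p = 1.61e-08) in bone, 1.26 ± 0.20 in pituitary and -2.30 ± 0.20 in liver. Ube2h, an E2 that pairs with the CTLH ligase, was higher in bone on one set, 302, 408, 379 and 326 against 66.2 to 358 elsewhere (1.14 ± 0.13), where it overlapped with spleen lymphocyte, and was not called in bone on its other set.

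Markers of several cell types were also higher in bone than in the other tissues. Erythroid markers summed to 66943, 104706, 100654 and 120650 in bone at the 4 ages, against 8395 to 37545 on other arrays, and all 11 of their tested probe sets were called higher there, with a median log2 difference of 3.70. So were all 11 of osteoblast and matrix (median 3.17), all 5 of neutrophils and myeloid cells (median 3.005) and all 17 of proliferation (median 2.71). Proliferation markers summed to 21026 to 34879 in bone and 17604 to 19278 in spleen lymphocyte, against 2475 to 5087 elsewhere. With bulk RNA, more cells of a type and more RNA of a gene in each cell cannot be told apart, here and in every tissue comparison.

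In spleen lymphocyte the leading E2 was Ube2j1, which works in the degradation of proteins of the endoplasmic reticulum. Its signals were 2442, 1622, 2218 and 1686 there and 129 to 829 on the other 20 arrays, with no overlap and a log2 difference of 2.44 ± 0.15 (SE; adjusted p = 4.4e-12). Hypothalamus had the lowest, 129, 164, 228 and 189.7 (-1.76 ± 0.15). Its relative Ube2j2, of the same pathway, was lower in liver, 506 to 705 against 578 to 1606 elsewhere (-1.02 ± 0.13). Ube2g1 was higher in spleen lymphocyte on one set, 2739, 2414, 2394 and 2546 (1.11 ± 0.20), and was not called on the other. Ube2k, an E2 that builds K48-linked chains on its own, went the other way on one set, with 187, 240.2, 208 and 219.8 in spleen lymphocyte (-1.28 ± 0.14) and 706, 954, 839.5 and 778 in pituitary (1.05 ± 0.14). Its other set was called in neither.

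The Ube2d enzymes, which serve many E3 ligases, split by gene and probe set. Ube2d1 was higher in hypothalamus on both of its sets, 506, 513, 394 and 405 on one (1.42 ± 0.20) and 392, 501, 426 and 344 on the other (1.26 ± 0.20). Ube2d2 had 3 sets. One was low in kidney, at 44.2, 46.5, 177 and 116 against 230.5 to 702 elsewhere (-1.69 ± 0.15), and high in spleen lymphocyte (1.13 ± 0.15). The second was low in liver, at 137, 71.6, 106 and 49.9 against 242 to 869 (-2.04 ± 0.18), and the third was also lower in liver (-1.03 ± 0.14), as was 1 set of Ube2e3 (-1.15 ± 0.17). Ube2v2, the partner with which Ube2n builds K63-linked chains, gave 867, 1129, 1057 and 933 in hypothalamus against 225 to 653 elsewhere, without overlap (1.22 ± 0.18), while no set of Ube2n was called in any tissue. Ube2b, a Rad6 homologue that ubiquitinates histone H2B, the NEDD8 enzyme Ube2m and the ISG15 enzyme Ube2l6 were called in none.

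The ligases of the Ube3 and Ube4 type gave few calls. Ube3b, a HECT ligase, was higher in kidney, 366, 362, 243 and 462 (1.07 ± 0.27), and lower in liver, where all 4 arrays were under 100 (29.9 to 74.5; -1.10 ± 0.27). Kidney and pituitary (275 to 321) overlapped, as did kidney and bone. Ube4b, a U-box E4 ligase, gave 1488, 1229, 1375 and 815 in liver on one set (1.02 ± 0.16) and was not called on the other; without the 4 arrays that stood apart its difference was 0.98, under the threshold of 1. Ube3a, the ligase lost in Angelman syndrome, had signals of 19.6 to 190.0, with 14 of 24 arrays at 100 or more, and was called in no tissue.

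Ubiquitin-specific proteases made up the largest group. In the hypothalamus and pituitary Usp11 stood at 2429 to 2781 on all 8 arrays and at 379.5 to 775 on the other 16, so that the 2 sets of arrays did not overlap. Its log2 difference was 1.74 ± 0.11 (SE; adjusted p = 1.9e-11) for hypothalamus and 1.75 ± 0.11 (SE; adjusted p = 4.53e-11) for pituitary. Usp54 followed the same order, with 888, 1044, 883 and 625 in hypothalamus, 559, 506, 495 and 462 in pituitary and at most 228 elsewhere (2.15 ± 0.18 and 1.26 ± 0.18). Usp33, known for deubiquitinating the thyroid hormone deiodinase Dio2 and beta-adrenergic receptors, was higher in hypothalamus (1878, 2463, 1819 and 2149; 1.004 ± 0.13), and so was Usp9x, a large X-linked enzyme of nerve cell development, on 2 of its 3 sets (1.13 ± 0.15 and 1.13 ± 0.14). Usp47, which acts on DNA polymerase beta, was higher in pituitary on one set (534, 469.9, 474 and 461; 1.37 ± 0.25), and lower there was Usp39, a spliceosome protein of this family without protease activity (237, 372, 248 and 266; -1.08 ± 0.15).

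Usp2, a deubiquitinating enzyme under circadian control that acts on Per1 and cyclin D1, had its highest tissue mean in pituitary. One set gave 1140.3, 731, 504 and 670.3 there and the other 545, 619, 572 and 581, for log2 differences of 2.07 ± 0.30 (SE; adjusted p = 5.16e-06) and 1.46 ± 0.35 (SE; adjusted p = 0.00129). The 4-month liver and kidney arrays lay within the pituitary range on both sets, at 1091 and 545 on the first and 557 and 576 on the second. Bone was lower on both sets (-1.23 ± 0.30 and -1.04 ± 0.35), with 113, 90.8, 120.2 and 41.9 on the first.

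Several proteases were higher in spleen lymphocyte, and some of these in bone as well. Usp1, which takes ubiquitin off FANCD2 and PCNA, gave 1211, 984, 922 and 833 in spleen lymphocyte on one set and 1241, 1073, 1397 and 1055 on the other (2.36 ± 0.18 and 1.502 ± 0.14). In bone its second set gave 1317, 1659.8, 1337 and 1581 (1.87 ± 0.14), while the first set, at 289, 572, 314 and 444, was not called. It was lower in hypothalamus (-1.33 ± 0.18 and -1.36 ± 0.14) and kidney (-1.59 ± 0.18 and -1.07 ± 0.14) on both sets. Usp3, which acts on ubiquitinated histone H2A, gave 1739, 1435, 1527 and 1245 in spleen lymphocyte and 157 to 660.2 elsewhere, without overlap (2.09 ± 0.15), and was lowest in hypothalamus (157 to 191; -1.54 ± 0.15). Usp24 was also above every other array there, at 1339, 1293, 1193 and 1332 (1.32 ± 0.16). Usp39, 1 set of Usp48 and Usp7 were called higher in spleen lymphocyte (1.09 ± 0.15, 1.04 ± 0.17 and 1.18 ± 0.20), and the other Usp48 set was not. Usp7, which acts on Mdm2 and p53, was higher in bone too (1052, 1833, 1772 and 2228; 1.37 ± 0.20) and lower in kidney (315, 452, 245 and 346; -1.42 ± 0.20).

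Usp15, known for acting on receptors of the TGF-beta pathway, was the leading protease of bone. It gave 539.7, 1321, 1124 and 1125 there and at most 296 on the other 20 arrays, a log2 difference of 2.52 ± 0.20 (SE; adjusted p = 6.08e-10); hypothalamus, with all 4 arrays under 100, was lower (-1.42 ± 0.20). Usp46, which with its partner Wdr48 acts on glutamate receptors, gave 190.1, 170.5, 146 and 154 in kidney, where it was lower (-1.69 ± 0.38), as were Usp32 on one set (-1.20 ± 0.23), Usp54 (-1.10 ± 0.18) and Usp11 (-1.07 ± 0.11). Usp46 ran from 166 to 2813 in hypothalamus. In liver Usp48 (188, 225, 418 and 446; -1.43 ± 0.17), Usp47 (-1.296 ± 0.25), Usp11 (-1.25 ± 0.11), Usp19 (-1.04 ± 0.14), Usp34 (-1.02 ± 0.13) and Usp1 (-1.02 ± 0.14) were lower, Usp48, Usp47, Usp19 and Usp1 on 1 set each. In hypothalamus the other set of Usp48 was lower (-1.08 ± 0.14).

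**Figure D2:**
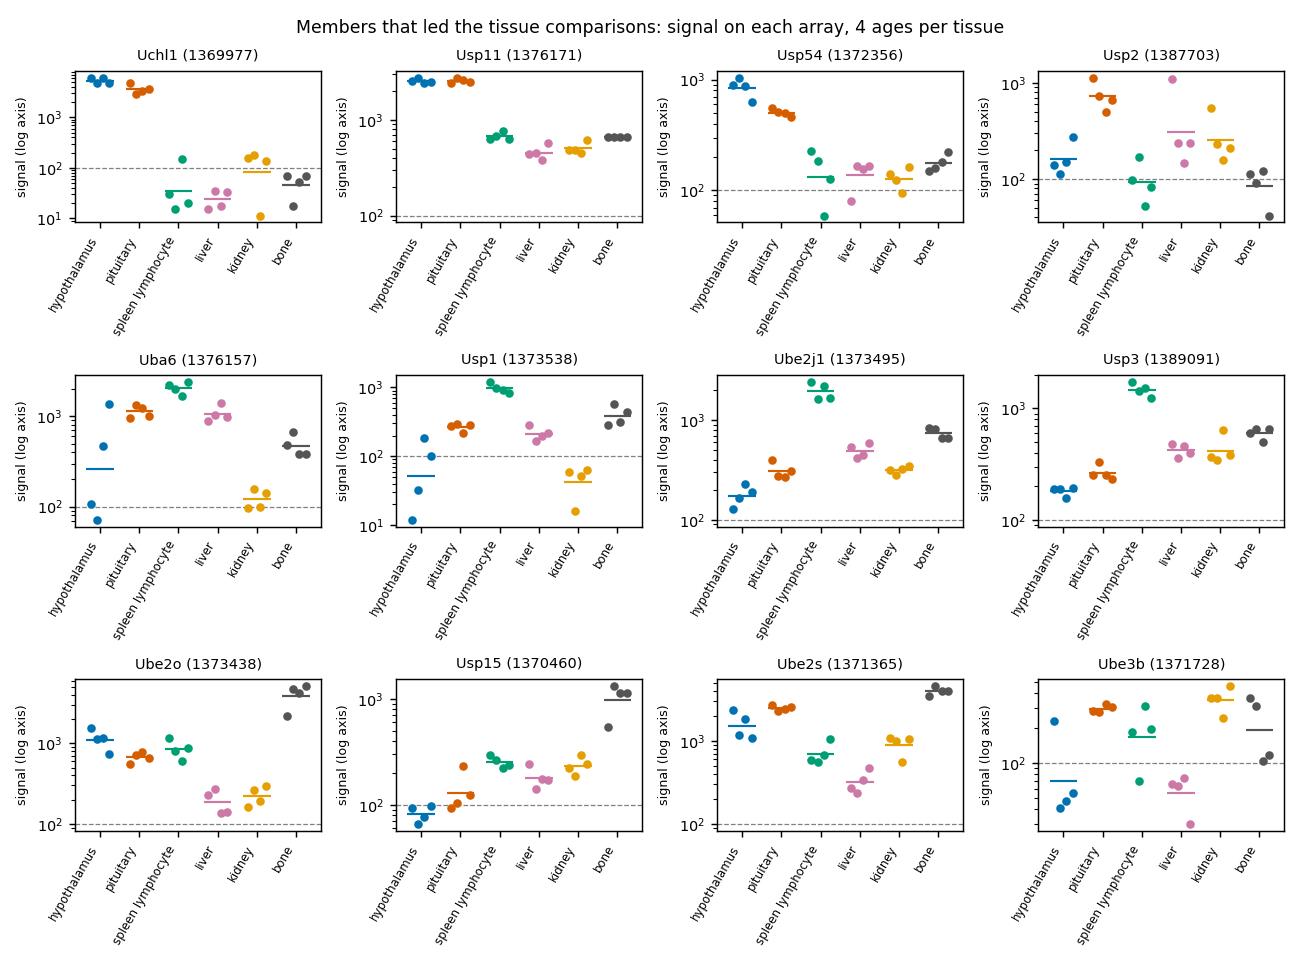
Signal (log axis) of 12 probe sets on each array, with 4 points per tissue in the order 4, 10, 18 and 24 months, a bar at their geometric mean and a dashed line at 100, the floor used in tests. Uchl1 and Usp11 are high on all 8 hypothalamus and pituitary arrays, Ube2j1 and Usp3 on all 4 spleen lymphocyte arrays, and Ube2o and Usp15 on all 4 bone arrays.

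Of the C-terminal hydrolases, Uchl1 had the largest tissue difference of all members. It gave 6001, 4695, 6135 and 4732 in hypothalamus and 4878, 2861, 3316 and 3699 in pituitary. On the other 16 arrays it ran from 11.3 to 179, with 4 at 100 or more, 1 of spleen lymphocyte and 3 of kidney. The log2 differences, understated by the floor, were 4.58 ± 0.15 (SE; adjusted p = 2.16e-16) and 3.90 ± 0.15 (SE; adjusted p = 7.34e-15). Neuron markers summed to 64530 to 73713 in hypothalamus, 47918 to 51854 in pituitary and at most 3015 elsewhere. The neuron list included secretory granule genes such as Chga, Chgb and Scg2, so its pituitary sum does not measure neurons. Uchl3, its relative, which also removes NEDD8, ran from 422 to 1115 over all arrays and was called in no tissue.

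The promoters of Uchl1, Uba6 and Usp46 are shown because the largest tissue difference and the largest differences between ages turn on these 3 genes. The windows, from RefSeq on the build GRCr8, run from 250 bases before to 50 bases after the start of the gene, 5′ to 3′ on its strand. All 3 genes lie on chromosome 14, at chr14:41849368-41849667 on the minus strand for Uchl1, chr14:22238582-22238881 on the plus strand for Uba6 and chr14:34503900-34504199 on the plus strand for Usp46. Capitals mark the motifs GGGCGG (a GC box) and TGACGT (the core of a cyclic AMP response element) on either strand, where neighbouring matches may share bases; CACGTG (an E-box) was searched too and had no match in them.
Uchl1: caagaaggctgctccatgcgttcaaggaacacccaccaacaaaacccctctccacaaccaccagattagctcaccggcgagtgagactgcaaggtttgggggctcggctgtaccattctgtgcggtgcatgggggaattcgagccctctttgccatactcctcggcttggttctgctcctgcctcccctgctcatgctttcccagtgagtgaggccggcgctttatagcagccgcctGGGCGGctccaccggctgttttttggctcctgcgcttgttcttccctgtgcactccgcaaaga
Uba6: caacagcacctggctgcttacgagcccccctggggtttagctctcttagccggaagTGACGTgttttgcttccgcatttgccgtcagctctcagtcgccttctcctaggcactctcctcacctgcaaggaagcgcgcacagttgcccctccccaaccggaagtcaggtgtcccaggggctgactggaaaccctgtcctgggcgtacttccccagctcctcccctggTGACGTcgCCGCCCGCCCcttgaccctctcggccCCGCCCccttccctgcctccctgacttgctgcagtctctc
Usp46: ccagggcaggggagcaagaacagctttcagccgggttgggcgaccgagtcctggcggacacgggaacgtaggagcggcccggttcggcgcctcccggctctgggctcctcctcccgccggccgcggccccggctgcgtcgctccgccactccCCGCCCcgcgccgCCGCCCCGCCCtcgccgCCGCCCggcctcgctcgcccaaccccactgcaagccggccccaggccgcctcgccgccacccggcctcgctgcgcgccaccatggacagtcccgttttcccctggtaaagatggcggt
The Uchl1 window held 1 GC box and 14 CpG pairs, Uba6 held 5 matches, 2 of them TGACGT, and 16 CpG pairs, and Usp46 held 4 GC boxes and 41 CpG pairs. Windows were found for 59 of the 69 genes. GGGCGG was in 74.6% of these and in 33.1% of all 33469 windows, TGACGT in 13.6% and 7.94%, and CACGTG in 5.08% and 6.42%. The median GC content was 64% for the members and 51.7% for all windows. A match describes the sequence and is not a sign of binding.

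With age as a factor shared by the 6 tissues, no member was called in any of 4 contrasts by limma at an adjusted p of 0.05. The shares of all probe sets called were 0.017% from 4 to 10 months, 0% from 10 to 18, 0% from 18 to 24 and 0.0425% between 4 and 24 months. At an unadjusted p under 0.05 the members numbered 3, 1, 0 and 0, against 4.76%, 2.73%, 2.89% and 6.11% of all probe sets.

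The smallest p belonged to Ube2l6, the E2 for the interferon-induced modifier ISG15, from 4 to 10 months. Its signal went from 265 to 287 in hypothalamus, 375 to 454 in pituitary, 288 to 345 in spleen lymphocyte, 572 to 683 in liver, 236 to 275 in kidney and 359.7 to 660.2 in bone. It was higher at 10 months in 6 of 6 tissues, by 0.33 ± 0.13 on the log2 scale (SE; unadjusted p = 0.0207 and adjusted p = 0.974 by limma), which did not pass. Interferon response genes had median log2 differences over the same ages of 0.61 in liver, 0.48 in bone, 0.28 in spleen lymphocyte, 0.26 in pituitary, 0.10 in kidney and 0.04 in hypothalamus. The part of an interferon response in the Ube2l6 values was not tested.

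Some members had the same direction in all 6 tissues. From 4 to 10 months they were 5 of the 66 that could be counted (7.58%), against 4.4% of all probe sets: Uchl3, Uba2, Ube2l6 and 1 set of Ube2b higher, and 1 set of Usp19 lower. Between 10 and 18 months there were 0 of 65 (1.5% of all), between 18 and 24 months 2 of 66 (3.03%, against 2.43% of all), Ube2q2 lower and 1 set of Usp48 higher, and between 4 and 24 months 0 of 65 (3.23% of all).

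Within tissues, the 18- and 24-month arrays, called late, were compared with the 4- and 10-month arrays, called early, in a limma fit with 12 tissue-by-phase means. The 2 ages of a phase stood in for replicates, and the spread was shared by all tissues. In hypothalamus 7 of 85 members (8.24%) were called, where 3.45% of all probe sets were. In the other tissues no member was called by limma: the shares of all probe sets were 0% in pituitary, 0.145% in spleen lymphocyte, 0.0595% in liver, 0% in kidney and 0.221% in bone. Members with an unadjusted p under 0.05 numbered 19 in hypothalamus, 3 in pituitary, 5 in spleen lymphocyte, 10 in liver, 6 in kidney and 4 in bone, and those shares of all probe sets were 13.4%, 2.1%, 7.39%, 7.6%, 5.56% and 15%.

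In the hypothalamus 4 of the called members were higher late. Usp46, whose promoter is printed above, gave 206, 166, 876 and 2813 at 4, 10, 18 and 24 months, a log2 difference of 3.09 ± 0.40 (SE; adjusted p = 5.19e-05). Both late arrays were above both early ones by more than 4-fold, and no other tissue went over 729.9 at any age. Uba6 gave 107, 71.7, 467 and 1359.6, with 2.95 ± 0.37 (SE; adjusted p = 3.42e-05). Its early arrays lay near the kidney values, and its 24-month array within the range of liver. Usp32, a membrane-bound protease of the endosome and Golgi, gave 88.4, 121, 350.1 and 357 on one set, with 1.68 ± 0.24 (SE; adjusted p = 0.000146), while the other set stayed level at 774, 746, 807 and 854 (0.13). Ube2g1 gave 547, 594, 1010.5 and 1861, with 1.27 ± 0.27 (SE; adjusted p = 0.00676), and 217, 281, 401 and 389.9 on its other set (0.68, adjusted p = 0.279 by limma).

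The remaining 3 were lower late, and all 3 were E2 enzymes. Ube2r2, a Cdc34 relative that builds chains with cullin ligases, gave 1505, 1563, 837 and 580.1, with -1.14 ± 0.23 (SE; adjusted p = 0.00454). Ube2h gave 1177, 1195, 768 and 382, with -1.13 ± 0.27 (SE; adjusted p = 0.0184), and on its other set 95.8, 86, 66.2 and 131 (0.19). Ube2z, the E2 that takes ubiquitin from Uba6 and not from Uba1, gave 717, 761, 416 and 429.7, with -0.81 ± 0.22 (SE; adjusted p = 0.0468). Uba6 and Ube2z thus had opposite directions on these arrays, but the Ube2z call held in only 6 of 15 alternatives. In each of these 3 E2 enzymes, both late arrays were below both early ones.

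**Figure D3:**
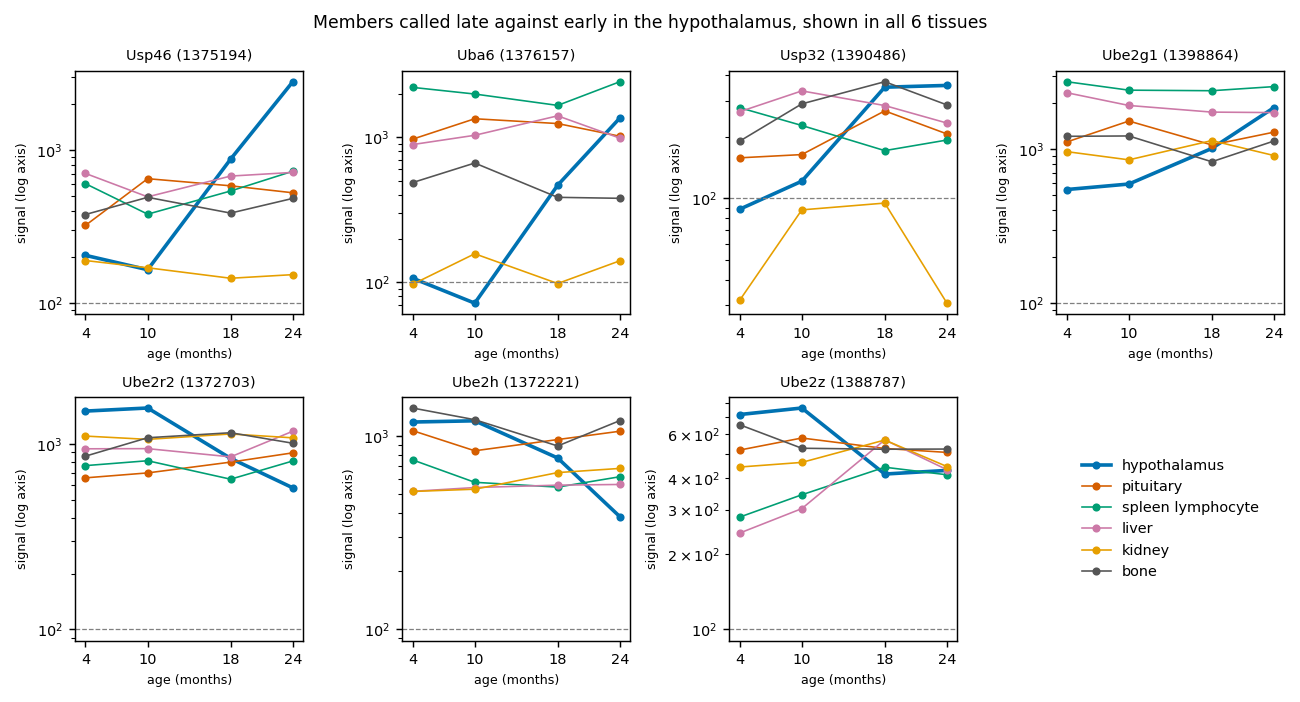
Signal (log axis) against age in months for the 7 probe sets called late against early in hypothalamus, with 1 line per tissue, hypothalamus drawn thick, and a dashed line at 100. Usp46 and Uba6 climb from about the kidney values at 4 and 10 months to 2813 and 1360 at 24 months in hypothalamus, while Ube2r2 and Ube2h end below the other tissues.

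These calls rested on few arrays. Uba6, Usp46 and Usp32 stayed past the threshold in every alternative in which they were tested. Without the 24-month hypothalamus array only those 3 of the 7 were called, and without the 4 arrays that stood apart 4 were, those 3 and Ube2g1. RNA and cell measures also differed between these arrays. The log2 ratio of 3′ to 5′ signal of Actb, which grows as RNA is shortened, was 1.89, 3.09, 1.21 and 1.10 at the 4 ages. Neuron markers summed to 67867, 64530, 66755 and 73713, oligodendrocyte and astrocyte markers to 64671, 52681, 65234 and 56788, and proliferation markers to 2475, 3144, 3661 and 4763. Hepatocyte markers summed to 15735, 30295, 14649.9 and 14445, and late against early 4 of their 17 tested sets were called lower, with a median log2 difference of -0.88; neuron markers and those of oligodendrocytes and astrocytes had 0 calls. The part of these in the calls was not tested.

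A second probe set, where there was one, did not share the call. Of the 7 genes, 3 had another tested set (Usp32, Ube2g1 and Ube2h), and 0 of the 3 sets were called. The same held for genes of the ubiquitin system outside the members: 8 genes of 4 lists were called late against early in hypothalamus, 7 of them had another tested set, and 0 of those were called. Over all named genes called there, 150 had another tested set, and in 11.3% of these genes a further set was called. Nedd4, a HECT ligase, was an example, with 881, 932, 5392 and 4515 on the called set and 2578, 3364, 2306 and 2028 on the other.

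Whether the late minus early difference itself varied between tissues was tested with an F test over the 6 tissues. It was called for 4 of 85 members (4.71%), against 1.74% of all probe sets: Uba6 (adjusted p = 0.00505), Usp32 (0.00985), Usp46 (0.0133) and Ube2z (0.0465), all by limma. For the first 3 the hypothalamus differences were 2.95, 1.68 and 3.09. Those in the other tissues lay between -0.57 and 0.30 for Uba6, -0.47 and 0.55 for Usp32, and -0.27 and 0.39 for Usp46. Ube2z was lower late in hypothalamus, and in liver it gave 242, 303, 568 and 433, a difference of 0.87 that was not called on its own (adjusted p = 0.19 by limma). Each of these 4 calls was lost in at least 1 alternative, and without the 24-month hypothalamus array only Uba6 was called, and without the 4 arrays that stood apart only Usp32.

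Other tissues held differences that did not pass, some of them larger than the smaller differences called in hypothalamus. In liver Usp48 gave 188, 225, 418 and 446 on one set with a log2 difference of 1.07 ± 0.21 (SE; adjusted p = 0.0609) by limma, with both late arrays above both early ones, and 266, 363, 278 and 260.0 on the other. In bone Ube3b gave 367, 308, 104 and 117 with -1.60 ± 0.35 (SE; adjusted p = 0.0602) by limma, and Usp47 gave 558, 424, 101 and 345 on one set with -1.38 ± 0.43 (SE; adjusted p = 0.146) by limma and 627, 574, 698 and 586 on the other. In spleen lymphocyte the smallest p was that of Usp54 (228, 183, 59.3 and 127; -0.86), in pituitary that of Usp12 (149, 194, 93.6 and 102; -0.75), and in kidney that of Usp8, an endosomal protease mutated in corticotroph tumours of the pituitary (530.0, 548, 1022 and 686; 0.64).

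Consecutive ages of 1 tissue could be compared by fold only, with 1 array on each side and no test. A 2-fold difference with at least 100 on both arrays was met 31 times, by 24 probe sets of 21 genes. Hypothalamus had 2 of 78 members from 4 to 10 months, 4 of 78 from 10 to 18 and 4 of 80 from 18 to 24, against 3.69%, 5.89% and 4.5% of all probe sets. Pituitary had 2 of 84, 1 of 83 and 0 of 83, against 2.6%, 1.38% and 1.35%. Spleen lymphocyte had 1 of 82, 1 of 80 and 0 of 79, against 4.27%, 2.72% and 2.48%, and liver 1 of 77, 1 of 79 and 0 of 79, against 3.05%, 3.19% and 3.88%. Kidney had 2 of 77, 2 of 76 and 3 of 78, against 1.4%, 5.59% and 3.45%, and bone 2 of 80, 3 of 79 and 2 of 78, against 9.48%, 9.72% and 8.16%. The members' shares were below those of all probe sets in most steps.

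The hypothalamus steps beyond the genes above were Uba3, 2.05-fold higher at 24 than at 18 months (1295, 1649, 1818 and 3727 over the 4 ages), Usp7, 2.22-fold higher at 18 than at 10 months (565, 293, 651 and 581), and Ube2q2, 2.05-fold lower at 18 than at 10 months (889.8, 1534, 749.5 and 747). One set of Ube2n was 3.17-fold lower at 10 than at 4 months (412, 129.7, 236 and 162), where the other set gave 1348, 823, 1214 and 898, and Ube2s was 2.01-fold lower (2349.6, 1166, 1810.2 and 1074). Ube2m gave 1756, 919, 1501 and 1085. The log2 ratio of 3′ to 5′ signal over the 4 ages was highest at 10 months for Actb, as given above, but for Gapdh it was 0.45, 0.36, 0.27 and 0.29, highest at 4 months.

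In kidney, 2 of 76 members made a 2-fold step from 10 to 18 months, against 5.59% of all probe sets. From 18 to 24 months 3 of 78 did, against 3.45% of all. Usp5, which disassembles unanchored chains, gave 783, 987, 381 and 972, Ube2m 1154, 1037, 466 and 930.2, 1 set of Ube2n 1031, 1159, 589 and 1336 and Ube2v2 308, 254, 495 and 225. Usp5, Ube2m and Ube2n were lowest at 18 months and Ube2v2 highest, and the 24-month array was back near 10 months in each. The 18-month array also had the lowest share of probe sets at 100 or more in the series, 67.8%.

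Usp2 was lower at 10 than at 4 months in both liver and kidney. In liver one set gave 1091, 237, 148 and 238 and the other 557, 311, 122 and 243. In kidney the values were 545, 235, 157 and 212 and 576, 209, 179 and 123. From 4 to 10 months the first set was 4.61-fold lower in liver and 2.32-fold lower in kidney, and the second was 2.76-fold lower in kidney. In both tissues and on both sets the 4-month array was the highest. Late against early, the liver differences were -1.44 and -1.27 (adjusted p = 0.431 and 0.504 by limma). In pituitary the first set gave 1140.3, 731, 504 and 670.3, again highest at 4 months, and the second 545, 619, 572 and 581.

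Genes of the circadian clock were set beside it, since Usp2 is under clock control. Of the clock genes with at least 100 on both arrays, 0 of 9 in liver and 1 of 12 in kidney were 2-fold lower at 10 than at 4 months, and 0 in either were higher. The one in kidney was Per1, a core clock repressor, with 326, 100, 59 and 102. Over the whole list the median log2 difference from 4 to 10 months was 0.14 in liver and -0.13 in kidney. Per1 gave 119.7, 89.6, 108 and 130 in liver. Dbp, a clock output factor, gave 126, 57, 59 and 64.8 in liver and 572, 351, 188 and 422 in kidney, and Per2, another clock repressor, 777, 440.4, 93.5 and 417 in liver and 765, 652, 707 and 593 in kidney. These 3 genes were picked after their values were seen. The hour of tissue collection was not known from the labels or methods, and its part in the Usp2 values was not tested.

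**Figure D4:**
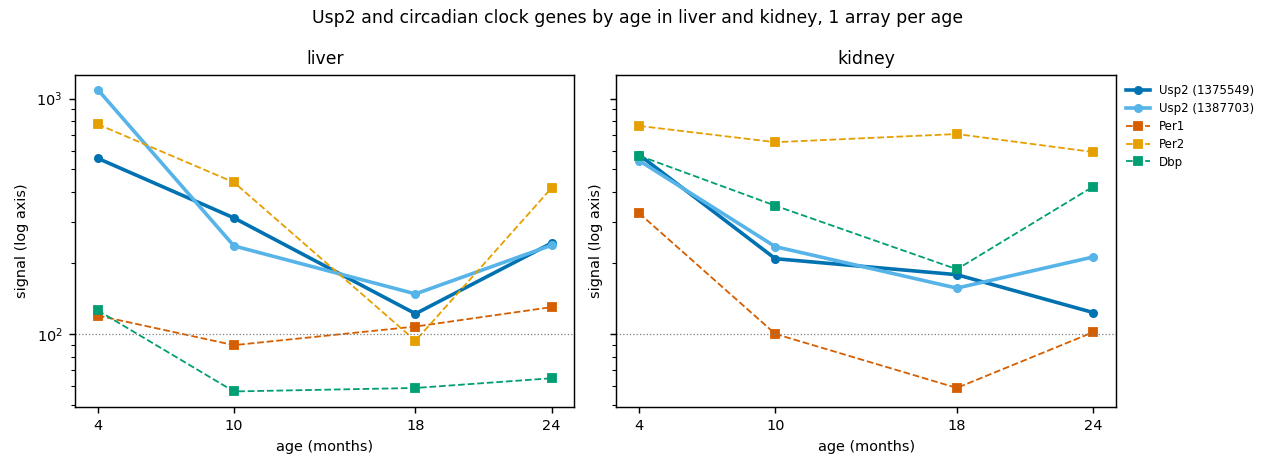
Signal (log axis) against age in months in liver and kidney for both Usp2 probe sets (solid lines) and for Per1, Per2 and Dbp (dashed lines), 1 array per point, with a dotted line at 100. Both Usp2 lines start at their highest point at 4 months in both tissues. Dbp and Per2 also start highest in both, while Per1 starts highest in kidney and not in liver. Dbp in liver is over 100 at 4 months only, and Per2 in kidney keeps to a narrow range (593 to 765). Per1, Per2 and Dbp were picked after their values were seen. Over the whole clock list the median log2 difference from 4 to 10 months was 0.14 in liver and -0.13 in kidney.

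Of the 6 probe sets called higher in bone, Ube2o and Usp15 made a 2-fold step from 4 to 10 months. They were the 2 of 80 members (2.5%) that did, against the 9.48% of all probe sets given above, and no member was called late against early in bone. Ube2o was 2.17-fold and Usp15 2.45-fold higher at 10 than at 4 months (2198 to 4767 and 539.7 to 1321), and both kept to the higher level at 18 and 24 months. Of the other 4, Usp7 gave 1052, 1833, 1772 and 2228, Ube2s 3457, 4587, 4001 and 3968, Usp1 1317, 1659.8, 1337 and 1581 and Ube2h 302, 408, 379 and 326, all below 2-fold from 4 to 10 months. Of the 12 erythroid genes with at least 100 on both arrays, 8 were at least 2-fold higher at 10 than at 4 months, with a median log2 difference of 1.04 against -0.002 for all probe sets. Other lists differed between the same arrays: of 10 skeletal muscle genes 7 were at least 2-fold higher (median 1.82), of 10 neutrophil and myeloid genes 4 were higher and 2 lower (median 0.68), of 17 proliferation genes 2 were higher (median 0.62), and of 13 osteoblast and matrix genes 8 were lower (median -1.36). Alas2, the first enzyme of haem synthesis in red cells, gave 7371, 12632, 13584 and 13937. Markers of osteoblast and matrix summed to 123714, 64517, 50243 and 39375 in bone at the 4 ages. The log2 ratio of 3′ to 5′ signal in bone was 1.56, 0.48, 1.12 and 1.31 for Actb at the 4 ages. For Gapdh it was 0.69, 0.30, 0.44 and 0.38. The make-up of the bone samples was not measured. The part of any of these cell types, or of RNA shortening, in the enzyme values was not tested.

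**Figure D5:**
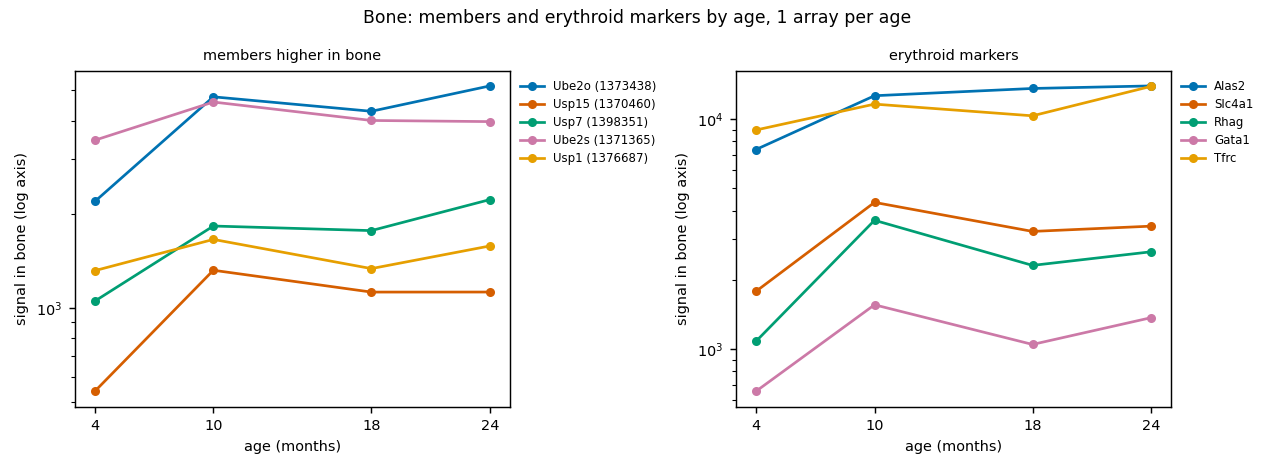
Signal in bone (log axis) against age in months, 1 array per point, for 5 members that were high in bone (left) and 5 of the 20 listed erythroid markers (right). All 10 lines are lowest at 4 months, least clearly for Usp1 (1317 at 4 and 1337 at 18 months). Levels of different probe sets are not comparable. Lists not drawn also differed between 4 and 10 months: 7 of 10 skeletal muscle genes were at least 2-fold higher, and 8 of 13 osteoblast and matrix genes lower.

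The largest steps in bone were those of the 18-month array: Usp47 on one set was 4.18-fold lower at 18 than at 10 months and 3.40-fold higher again at 24 months, and Ube3b was 2.95-fold lower at 18 than at 10 months. Usp25 (72.9, 114, 236 and 144) was 2.07-fold higher at 18 than at 10 months and Ube2t, a Fanconi anaemia E2 that was under the filter (397, 354, 213 and 517), 2.43-fold higher at 24 than at 18 months. In spleen lymphocyte the 2 steps were both Ube2d1, 3.02-fold higher at 10 than at 4 months on one set (129.6, 392, 230.1 and 303) and 2.52-fold lower at 18 than at 10 months on the other (82.2, 267, 106 and 197); on both sets the 10-month array was the highest. In pituitary the steps were Usp46 (323, 653, 586 and 528), Usp15 (93.2, 105, 233 and 124) and 1 set of Usp19 (304, 138, 241 and 252).

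Other parts of the ubiquitin system were read from fixed lists for comparison. Of 79 E3 ligases and substrate receptors listed, 55 were tested, on 74 probe sets, and 11 sets were higher and 2 lower in bone, 2 and 11 in liver, 7 and 6 in hypothalamus, 4 and 1 in pituitary, 7 and 4 in spleen lymphocyte, and 1 and 9 in kidney. The shares of all probe sets were, in the same order, 10.4% and 8.04%, 9.42% and 15.7%, 12% and 10.5%, 10.2% and 6.48%, 13.6% and 14.6%, and 10.2% and 9.42%. Cdc20, an activator of the anaphase-promoting complex with which Ube2s works, was higher in bone on 3 sets, with log2 differences of 2.82, 2.78 and 1.15. Cul4a, a cullin scaffold, was higher in liver (2.23), Mdm2, the ligase of p53, in spleen lymphocyte (2.59), and Trim32 in hypothalamus (1.80). Of 31 subunits of the proteasome, which degrades tagged proteins, 28 were tested on 29 probe sets. They gave 5 tissue calls, 1 higher each in hypothalamus and liver, and 1 lower in spleen lymphocyte and 2 in kidney. In each tissue and direction this share was below that of all probe sets. Of 15 ubiquitin and ubiquitin-like modifiers 9 were tested, on 10 sets. Their 3 calls were 1 higher in pituitary and 1 lower each in hypothalamus and liver. Of 27 other deubiquitinating and deconjugating enzymes 15 were tested, on 16 sets, with 9 calls. These were 2 higher each in hypothalamus, pituitary and bone, and 1 higher and 2 lower in spleen lymphocyte. No share of all probe sets was counted over the 6 tissues together.

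Late against early in hypothalamus, the E3 ligases gave 5 sets higher and 2 lower of 74, the proteasome 1 higher of 29, the modifiers 0 of 10 and the other deubiquitinating and deconjugating enzymes 0 of 16, against 3.45% of all probe sets; none of these lists had a call in another tissue or in an age contrast over tissues. Pja2, a RING ligase of nerve cells, gave 545, 1647, 6316 and 6086 (log2 difference 2.71, adjusted p = 5.69e-05 by limma) on one set and 3368, 4479, 3591 and 4328 on the other. The Nedd4 set named above had a difference of 2.45. Rbx1, the RING subunit of cullin ligases, gave 1054, 1171, 421 and 228 (-1.84), and its other set 1748, 1851, 2228 and 1751. The direction was thus mixed within the ligases as it was within the members, 4 higher and 3 lower.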

How the data were processed

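Gene expression was measured on 24 Affymetrix Rat Expression 230A arrays, 1 for each of 6 tissues at 4 ages, each with the pooled RNA of 10 rats. The deposited values are MAS5.0 signal intensity, scaled by the authors to a target of 500; its version was not stated in the labels or methods. Such scaling makes array averages equal and would hide a shift of all genes. Groups were taken from the sample labels, and gene names from the annotation of the array.

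Control probe sets (57) were left out, signals under 100 were set to 100, and log2 values were tested with limma 3.58.1 in R 4.3.3 for the 11756 probe sets at 100 or more on at least 12 arrays. Benjamini-Hochberg adjustment ran over all of them within each contrast. Tissue and age contrasts came from a fit with both as additive factors (15 residual degrees of freedom), and late against early contrasts and the F test from 12 tissue-by-phase means (12 degrees of freedom). Consecutive ages were compared by fold with no test. The fits were tested on simulated data. Promoter windows came from RefSeq on GRCr8. All enzymes called in a test, those with a 2-fold step and a fixed set of well-known family members were named. Uba7, Ube2d3, Ube2v1, Uchl5 and Usp14 were not analysed here. The rule for the enzymes used gene names only, but the enzymes and the gene lists were chosen with earlier results of these data known. The number of arrays limits the precision, and p-values measure the spread between arrays of pooled RNA. Alternatives changed the floor, the scaling, the filter, the choice of probe set, the array weights and the arrays included; adrenal gland was not analysed here.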

Additional observations from a re-analysis of the deposited data

Results flagged for a closer look

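For 4 enzymes the late minus early difference itself varied between the 6 tissues by limma's F test. They were Uba6 (adjusted p = 0.00505), Usp32 on one probe set (adjusted p = 0.00985), Usp46 (adjusted p = 0.0133) and Ube2z (adjusted p = 0.0465). For Uba6, Usp32 and Usp46 the hypothalamus stood apart, with log2 differences of 2.95, 1.68 and 3.09. These are the same values as in the comparison of tissues above and are no further evidence.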

How the results depend on the processing

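The tissue calls over the members numbered 79 and stayed between 57 and 86 in all alternatives, and 0 members were called for age over tissues in each of them. The late against early count in hypothalamus, which was also the count over all tissues, went from 7 to 4 without the 4 arrays that stood apart and to 3 without the 24-month hypothalamus array, an alternative chosen after the data were seen; leaving out the arrays of 1 age at a time gave 3 to 6. The F test count went from 4 to 2 with a floor of 50, with a pseudocount of 50 or with one probe set per gene, to 1 without the 4 arrays and to 1 without the 24-month hypothalamus array, and leaving out 1 age gave 0 to 2. Steps numbered 31 at 2-fold, 192 at 1.5-fold, 7 at 3-fold and 19 with a floor of 200. Over 77 named results, 1088 recomputed values kept direction and side of the threshold, 69 lost the call, 11 gained one and 1 changed sign: Usp32 in bone, late against early, at -0.017 without the 4 arrays. The cause was not tested. Arrays of an age were matched across tissues, coming from the same rats, and age was a term in the tissue fit for that reason; the labels carry no replicate numbers. Pools, 1 array per tissue and age and signals near 100 limit what could be detected.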
